A study of Homo sapiens with 8 samples.

Results

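The epithelial-mesenchymal transition (EMT) switch genes examined here were SNAI1, SNAI2, ZEB1, ZEB2, TWIST1, OVOL1, GRHL2, ESRP1, ESRP2 and CDH1. They were taken by symbol from a table of raw read counts, which held 10 of the 10 among its 54261 genes, and their levels are given as CPM, a count divided by the total count of its library and multiplied by 1000000. The study sequenced total RNA, after removal of ribosomal RNA, from human intestinal cell lines in order to find RNAs that differ between normal and colorectal cancer (CRC) lines. The normal group held NCM460 and HIEC6 (n = 2 lines), both labelled as normal human intestinal epithelial lines. The CRC group held DLD1, HCT116 and HCT8 (n = 3 lines), which derive from colorectal tumors, and the CRC hypoxia group held the same 3 lines under hypoxia, with neither oxygen level nor duration given. The study's methods give DMEM with serum for NCM460, HIEC6, DLD1 and HCT8 and do not list HCT116 there. The labels name no introduced allele. Each line and treatment was 1 library, so a group's spread is a spread between lines. Nothing in the labels says that the 2 libraries of a line came from separate cultures, and p-values then measure only the spread between these samples.

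Total counts lay between 45519306 and 57374239, so that the floor of 3 counts lay at 0.0523 to 0.0659 CPM (counting error only). The library labelled NCM460 stands against its label. Across genes, its log2(CPM + 1) values correlated at a Pearson r of 0.994 with untreated HCT116 and 0.924 with HIEC6, the other normal line. The comparison of CRC with normal lines is therefore given with and without it. The ranking of genes most like CDH1 and ZEB1 and the counts by run label include it. HIEC6 held 243272 counts of KRT8 and 211257 of KRT18, keratins of simple epithelium, but 56 of KRT19 and 3 of CDX2, which mark intestinal epithelium. VIL1, another such marker, held 4 counts in HIEC6, 4 in NCM460 and 2 in HCT116, against 411 in DLD1 and 13632 in HCT8. Of 8 endothelial and blood markers, 3 were above and 3 below every untreated CRC line in HIEC6. The endothelial marker CDH5 held 306 counts in HIEC6, 10 in NCM460 and 0 in the untreated CRC lines. VWF, another endothelial marker, held 24 counts in HIEC6 and 50 to 269 in the untreated CRC lines. HIEC6 also held 69375 counts of VIM, a mesenchymal intermediate filament gene. Of matrix genes it held 6616 counts of FN1 and 2608 of COL1A1, but 26 of COL1A2, 66 of COL3A1 and 1 of POSTN. A protocol label names brain tissue as the RNA source. Of 8 neural markers, RBFOX3, GFAP and OLIG2 reached at most 15, 5 and 4 counts in any library. SYT1 held 3383 counts in NCM460, 6693 in HCT116 and 8828 in HCT116 under hypoxia, with at most 81 elsewhere, MBP 614 to 6510 and GAD1 263 to 1115. Their part in the results was not tested. The untreated and the hypoxia libraries of the CRC lines have no run label in common, and run and treatment cannot be told apart. A second run label stands on NCM460, on DLD1 under hypoxia and on HCT116 under hypoxia.

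EMT is the conversion of polarized epithelial cells, held together by E-cadherin junctions, into migratory mesenchymal cells. The zinc finger and helix-loop-helix factors SNAI1, SNAI2, ZEB1, ZEB2 and TWIST1 repress the E-cadherin gene CDH1 through E-box letters. OVOL1 and GRHL2 oppose them and sustain epithelial genes, while the splicing regulators ESRP1 and ESRP2 keep the epithelial isoforms of genes such as CD44 and FGFR2. In many carcinoma lines these sets are set against each other, with ZEB1 and the miR-200 microRNAs repressing each other.

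The miR-200 family is shown because its seed pairs with ZEB1 and ZEB2 transcripts and groups its 5 members into a pair of classes. The mature arms come from RefSeq on GRCh38.p14, written 5′ to 3′ with the seed (bases 2 to 8) in capitals. The class with seed AAUACUG holds miR-200b and miR-429, at chr1:1167160-1167181 and chr1:1169055-1169076, and miR-200c, at chr12:6963742-6963764.
hsa-miR-200b-3p: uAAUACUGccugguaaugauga
hsa-miR-200c-3p: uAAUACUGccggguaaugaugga
hsa-miR-429: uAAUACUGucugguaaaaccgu
The class with seed AACACUG holds miR-200a, at chr1:1167916-1167937, and miR-141, at chr12:6964155-6964176, all on the plus strand.
hsa-miR-200a-3p: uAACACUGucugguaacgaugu
hsa-miR-141-3p: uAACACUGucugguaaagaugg
Total RNA libraries do not measure mature microRNAs, and the table's entries for these genes count reads over the hairpin genes. The 5 hairpin genes were all at 0 counts in HIEC6, whose 0 allows up to 0.0529 CPM for each. In the untreated CRC lines their counts lay between 3 and 31. The summed level of the 6 loci listed, with MIR205HG, was 1.68 CPM in DLD1, 1.73 in HCT8, 0.727 in HCT116 and 0.773 in NCM460. Under hypoxia the sums were 1.97 CPM in DLD1, 2.28 in HCT8 and 0.433 in HCT116. DLD1 and HCT8 thus lay above HCT116 in both treatments and, untreated, above NCM460. In the test of HCT116 against DLD1 and HCT8 described below, 0 of the 5 hairpin genes passed in edgeR or DESeq2, and MIR429 alone had an unadjusted p under 0.05 in edgeR's quasi-likelihood test (0.0370).

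RefSeq promoter windows, from 250 bases before to 50 after a gene's start on GRCh38.p14, were at hand for ZEB1 and ZEB2, 2 of the 10 genes. The E-box letters CACCTG or CAGGTG, which are reverse complements so that 1 search covers both strands, stood in 2 of 7 ZEB1 windows and not in the ZEB2 window. They stood in 20.6% of all 35116 windows. The stretches round the 4 ZEB1 matches are shown, since SNAI and ZEB factors bind these letters, with the match in capitals. They start at chr10:31318350-31318375, where the match begins 57 bases before its gene start, and go on in another window at chr10:31318966-31318989, chr10:31319121-31319146 and chr10:31319239-31319264, where the matches begin 242 and 85 bases before and 33 bases after the start.
ZEB1, 57 before: gaggtgacagCAGGTGagggccgggt
ZEB1, 242 before: ccccaccaCACCTGaggaaaactt
ZEB1, 85 before: tgtcgtaaacCAGGTGcggtggggag
ZEB1, 33 after: cggatggcccCAGGTGtaagcgcaga
A match is a description of the letters and says nothing of binding in these cells.

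The factors of the mesenchymal side were highest in HIEC6 for 4 of 5 genes. ZEB1 (on GRCh37, chr10:31607424-31818742, plus strand) stood at 16.8 CPM in HIEC6, 2.56 in NCM460, 7.06 in HCT116, 1.35 in HCT8 and 1.03 in DLD1. Under hypoxia it stood at 8.90 CPM in HCT116, 1.29 in DLD1 and 1.23 in HCT8. The order was thus HIEC6, HCT116, NCM460 and then HCT8 and DLD1, whose 4 libraries held 53 to 74 counts and crossed each other between treatments. ZEB2 (chr2:145121931-145278624, minus strand), the close relative of ZEB1, was near the floor outside HIEC6. It had 746 counts (13.2 CPM) in HIEC6, against 7 in NCM460, 1 in DLD1, 4 in HCT116 and 5 in HCT8, and 25, 20 and 1 in DLD1, HCT116 and HCT8 under hypoxia. In bulk RNA, fewer cells that use a gene and less of its RNA per cell cannot be told apart.

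SNAI1 (chr20:48599517-48605423, plus strand), the founding Snail factor, did not follow ZEB1. It stood at 18.8 CPM in NCM460, 6.12 in HIEC6, 12.5 in HCT116, 5.89 in HCT8 and 4.08 in DLD1, and at 26.0, 5.29 and 2.67 CPM in HCT116, HCT8 and DLD1 under hypoxia. HIEC6 lay within the range of the CRC lines for this gene. SNAI2, also known as Slug, was found mainly in HIEC6, with 209 counts (3.69 CPM), against 10 in NCM460, 2 in DLD1, 28 in HCT116 and 3 in HCT8. Under hypoxia DLD1 held 23 counts, HCT116 98 and HCT8 5. TWIST1 had 301 counts (5.31 CPM) in HIEC6, 31 in NCM460, 119 in HCT116 and 89 in HCT116 under hypoxia. It was at 0 counts in DLD1, in HCT8 and in HCT8 under hypoxia, and at 3 in DLD1 under hypoxia.

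The epithelial side showed the opposite extreme in HIEC6. OVOL1 (chr11:65554534-65564685, plus strand), a zinc finger repressor of ZEB1 in epithelia, had 1 count in HIEC6 (0.0176 CPM), against 46.5 CPM in NCM460, 29.9 in HCT8, 21.9 in DLD1 and 15.1 in HCT116. GRHL2, a Grainyhead factor that activates junction genes, stood at 0.194 CPM in HIEC6, 56.7 in NCM460, 41.2 in HCT116, 116 in HCT8 and 120.3 in DLD1. Under hypoxia OVOL1 stood at 40.1 CPM in DLD1, 20.4 in HCT116 and 27.7 in HCT8, and GRHL2 at 118, 17.9 and 102 in the same order. The CRC lines and NCM460 all expressed both genes, and HIEC6 was below each of them.

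CDH1 (chr16:68771195-68869440, plus strand), which encodes E-cadherin, fell into 3 tiers. It stood at 1071 CPM in DLD1 and 972 in HCT8, at 147 in NCM460 and 126 in HCT116, and at 3.03 in HIEC6 (172 counts). Under hypoxia it stood at 1149.8 CPM in DLD1, 1452 in HCT8 and 219.6 in HCT116. HCT116 and NCM460 were neighbours in this order, with a CPM ratio of NCM460 to HCT116 of 1.16, and the libraries of DLD1 and HCT8 overlapped.

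The ESRP genes, which encode partly redundant splicing regulators, differed between lines in which of the pair was the more abundant. ESRP1 stood at 242 CPM in NCM460 and 218 in HCT116, against 36.7 in DLD1, 33.8 in HCT8 and 0.0882 in HIEC6 (5 counts). ESRP2 (chr16:68262936-68272005, minus strand) stood at 150.3 CPM in DLD1, 85.4 in HCT8, 53.4 in NCM460, 50.02 in HCT116 and 0.582 in HIEC6. Per kilobase of exon, ESRP1 made up 82.8% of the pair's level in NCM460 and 82.3% in HCT116, but 29.7% in HCT8 and 20.7% in DLD1. Under hypoxia its share was 78.3% in HCT116, 35.6% in HCT8 and 14.6% in DLD1. ESRP1 was thus the more abundant in HCT116 and NCM460, ESRP2 in DLD1 and HCT8, and HIEC6 held little of either.

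**Figure D1:**
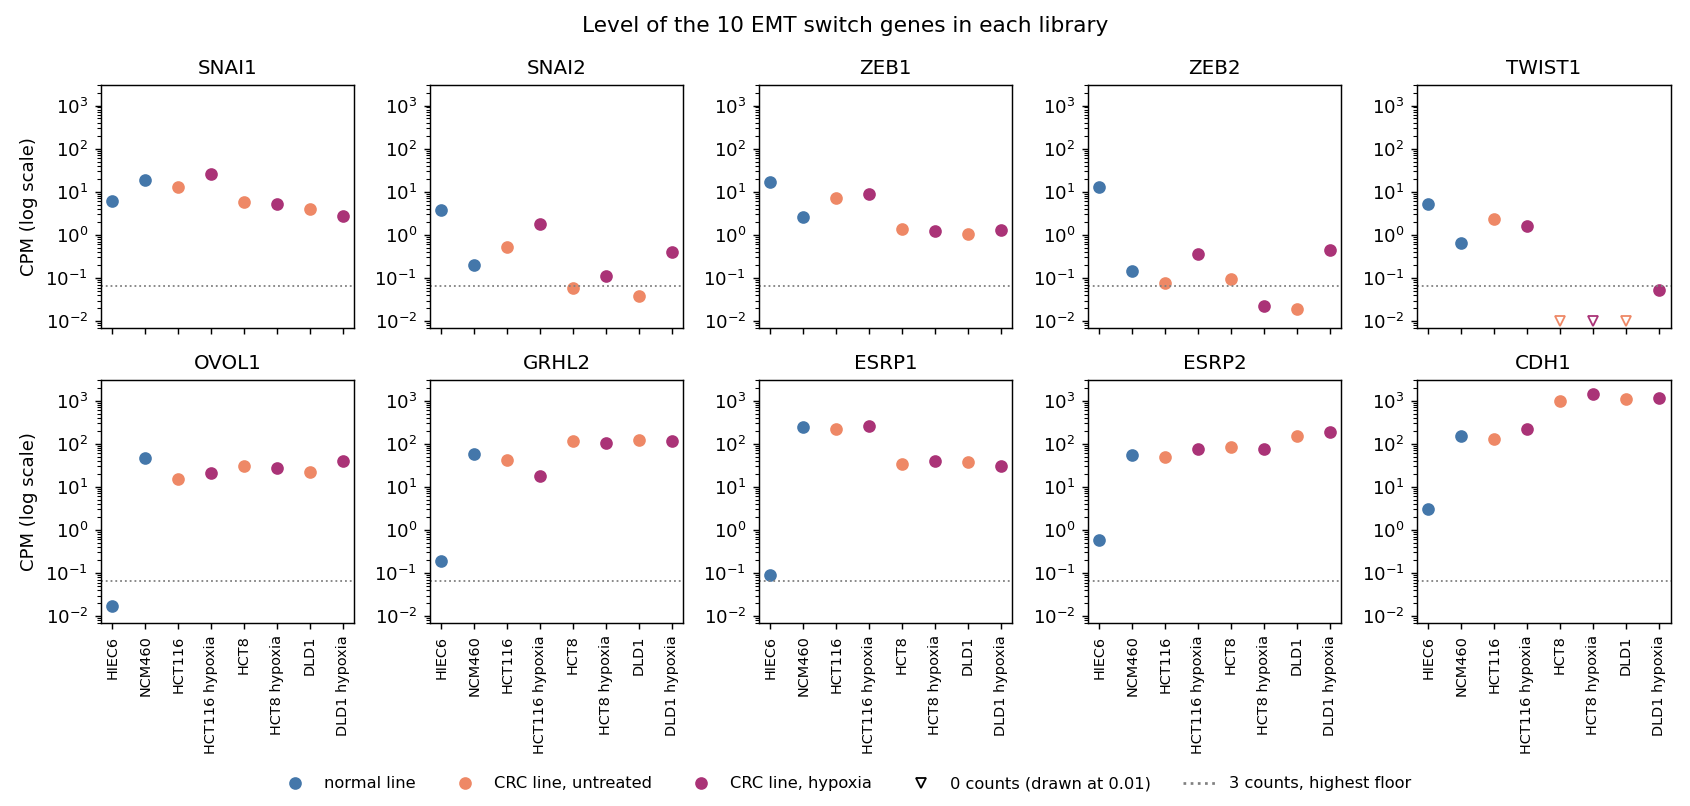
Level of each of the 10 genes in each library in CPM on a log scale, 1 point per library, coloured by group; open triangles mark 0 counts and the dotted line the highest 3-count floor (0.0659 CPM). HIEC6 stands at the top for SNAI2, ZEB1, ZEB2 and TWIST1 and at the bottom for OVOL1, GRHL2, ESRP1, ESRP2 and CDH1.

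The factors were then set beside CDH1 in each library. The summed level of SNAI1, SNAI2, ZEB1, ZEB2 and TWIST1 was 45.1 CPM in HIEC6, 22.5 in HCT116, 22.4 in NCM460, 7.39 in HCT8 and 5.17 in DLD1. The sum under hypoxia was 38.7 CPM in HCT116, 6.66 in HCT8 and 4.85 in DLD1. SNAI1 alone gave 18.8 CPM of the sum in NCM460, 12.5 in untreated HCT116 and 6.12 in HIEC6. Within a library, the CPM ratio of CDH1 to ZEB1 was 0.180 in HIEC6, 17.9 in HCT116, 57.4 in NCM460, 721 in HCT8 and 1035 in DLD1. Under hypoxia that ratio was 24.7 in HCT116, 1180 in HCT8 and 891 in DLD1. The libraries of a line stayed together, since hypoxia moved the ratio less than the lines differed between HIEC6, HCT116 and the pair of DLD1 and HCT8. HCT116 and NCM460 expressed factors, mainly SNAI1, and the epithelial genes at the same time, with CDH1 levels between those of HIEC6 and DLD1. DLD1 and HCT8 also held SNAI1 and ZEB1, at lower levels, beside their higher CDH1.

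**Figure D2:**
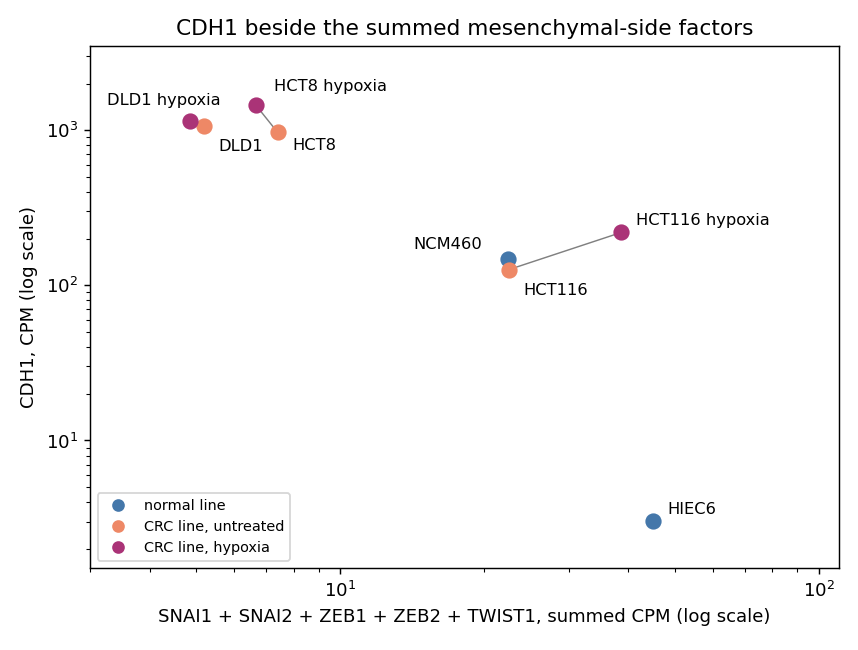
CDH1 in CPM against the summed CPM of SNAI1, SNAI2, ZEB1, ZEB2 and TWIST1, both on log scales, 1 point per library, with a grey line joining the untreated and the hypoxia library of a CRC line. DLD1 and HCT8 lie at the upper left (sums of 4.85 to 7.39 CPM), HCT116 and NCM460 between, and HIEC6 at the lower right (45.1 CPM, CDH1 3.03 CPM).

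CRC lines against normal lines is the comparison the study was designed for, and its lines varied widely within each group, with a coefficient of variation of 0.933 in the edgeR fit. CDH1 stood at 723 ± 519 CPM (SD, n = 3) in the CRC lines and 75.0 ± 102 (n = 2) in the normal lines, and ZEB2 at 0.0637 ± 0.0393 against 6.65 ± 9.20. In edgeR's quasi-likelihood test, 0 of the 10 genes passed an adjusted p of 0.05, as did 0 of 22925 genes (0%), of which 690 had an unadjusted p under 0.05. DESeq2 called 267 genes. ZEB2 alone of the 10 did not overlap between the groups, being lower in every CRC line, beside 17.8% of all genes without overlap, 12.6% higher and 5.26% lower. That separation rests on 7 counts in NCM460 against 5 in HCT8, near the floor of 3 counts, with 746 in HIEC6. The log2 fold change of ZEB2 was -6.92 (SE 1.958, adjusted p = 0.993), carried by HIEC6, and DESeq2 called it (adjusted p = 0.00801). That of CDH1 was 3.13 (SE 1.73, adjusted p = 0.993). For OVOL1 and ESRP1 the normal lines were the lowest (HIEC6) and the highest (NCM460) of the 5 untreated libraries. Without NCM460, the comparison is that of HIEC6 with the CRC lines.

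HIEC6 stood apart from the untreated CRC lines in 9 of these 10 genes, 4 of them above and 5 below every CRC line in CPM, beside 23.4% and 39.6% of all 22491 genes. For OVOL1, GRHL2, ESRP1, ESRP2 and CDH1, HIEC6 lay over 16-fold below every CRC line, with values under 3 counts set at 3. The nearest CRC line was 212-fold above HIEC6 for GRHL2, 384-fold for ESRP1, 86.0-fold for ESRP2 and 41.7-fold for CDH1. These folds rest on 11, 5, 33 and 172 counts in HIEC6, in that order. For OVOL1, at 1 count in HIEC6, the ratio of HCT116 to HIEC6 was 858, with an exact 95% counting interval of 153 to 33916. ZEB2 was 139-fold above the highest CRC line. These are 5 of 10 genes past 16-fold lower and 1 of 10 past 16-fold higher, beside 1.86% and 1.67% of 22491 genes.

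SNAI2, ZEB1 and TWIST1 were 6.88-, 2.38- and 2.33-fold above the highest CRC line, HCT116 in each case. With 1 library on the HIEC6 side, edgeR assumed that it varies like the CRC lines and called none of the 10 genes and 5 of 22491 (0.0222%). DESeq2 called 6 of the 10 (ZEB2, OVOL1, GRHL2, ESRP1, ESRP2 and CDH1) and 2588 genes in all. Without HCT116, edgeR called 117 genes, among them GRHL2 (adjusted p = 0.0442) and CDH1 (adjusted p = 0.0446), and without DLD1 or HCT8 it called 0.

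The targets and partners of these factors in HIEC6 were counted over fixed lists. Of 20 epithelial junction and polarity genes, 20 were lower in HIEC6 than in every CRC line and 12 were past 16-fold, beside 39.6% of all genes lower than every CRC line. EPCAM, an epithelial adhesion molecule, was 1560-fold below the nearest CRC line and RAB25, a small GTPase of apical recycling, 571-fold. HIEC6 held 10 and 9 counts of them, so both folds are imprecise. JUP, which encodes plakoglobin of desmosomes, was 1.13-fold below. Of 12 other epithelial-side factors, 7 were below every CRC line, among them EHF at 36.8-fold, and ELF3, which was 1.002-fold below. With TMM factors (0.886 for HIEC6, 1.004 for HCT116), JUP and ELF3 were no longer below HCT116, their nearest CRC line. The counts of 20 and 7 genes below every CRC line therefore hold for column totals.

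Of 20 mesenchymal effector genes, 8 were above every CRC line, beside 23.4% of all genes, and 4 below. FBN1, which encodes the matrix protein fibrillin, was 284-fold above and VIM 197-fold, while SPARC was 2.92-fold and COL1A2 1.70-fold below. Among 12 other mesenchymal-side factors 4 were above and 4 below every CRC line, with SOX9, a progenitor factor of the intestine, 127-fold below. TWIST2 (1132 counts) and FOXC2 (866 counts) were at no more than 1 count in any untreated CRC line. ZEB1-AS1, an antisense gene beside ZEB1, held 45 counts in HIEC6 and 158 to 537 in the other libraries, so that HIEC6 was lowest for it and highest for ZEB1, and reads of the overlapping pair cannot be told apart without the strand.

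HCT116 against DLD1 and HCT8 compared the CRC lines with each other, each with its untreated and its hypoxia library. In CPM, both HCT116 libraries lay above all 4 libraries of DLD1 and HCT8 for SNAI1, ZEB1, SNAI2, TWIST1 and ESRP1 (5 of 10, beside 14.1% of all genes) and below them for GRHL2, CDH1, OVOL1 and ESRP2 (4 of 10, beside 23.9%). For OVOL1 and ESRP2 this held under column totals only. With TMM scaling, HCT116 under hypoxia stood at 25.7 for OVOL1, against 21.1 in untreated DLD1, and at 96.1 for ESRP2, against 74.6 in untreated HCT8. In the fit with line and treatment, 7 of these 10 genes passed an adjusted p of 0.05 in edgeR, 5 of them higher and 2 lower, beside 30.8% of all 23329 genes (17.2% higher and 13.5% lower). The lines are 1 line each, so the test covers these libraries.

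ZEB1 was higher by a log2 fold change of 2.99 (SE 0.35, adjusted p = 1.5e-04) and SNAI1 by 2.44 (SE 0.39, adjusted p = 0.00105). SNAI2 was higher by 3.44 (SE 0.69, adjusted p = 0.00397), on counts of 28 and 98 against 2 to 23, and was not called without HCT116 under hypoxia (adjusted p = 0.0795). TWIST1, absent or at 3 counts in the other lines, passed with adjusted p = 2.66e-04, and stood 34.6-fold above their highest 3-count floor without treatment and 24.4-fold under hypoxia. CDH1 was lower by 2.49 on the log2 scale (SE 0.26, adjusted p = 6.97e-05), and a link between its level and these 4 factors was not tested.

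GRHL2 was lower, with a log2 fold change of -1.76 (SE 0.24, adjusted p = 3.86e-04). ESRP1, of the epithelial side, was higher by 3.05 (SE 0.21, adjusted p = 3.81e-06). OVOL1 (log2 fold change -0.46, SE 0.26, adjusted p = 0.208), ZEB2 (0.96, SE 1.28, adjusted p = 0.610) and ESRP2 (-0.62, SE 0.25, adjusted p = 0.0840) did not pass. ESRP2 passed when libraries were scaled by column totals alone (log2 fold change -0.92, adjusted p = 0.0113), a scaling that shifted the median of all genes to -0.30, and without HCT116 under hypoxia (log2 fold change -1.07, adjusted p = 0.00319). The 7 calls included SNAI1, SNAI2 and GRHL2, which were lost in a fit that left out both hypoxia libraries with the second run label (log2 fold change 1.51, 3.29 and -1.36, adjusted p = 0.0783, 0.192 and 0.0532), where ZEB1, TWIST1, ESRP1 and CDH1 were called.

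**Figure D3:**
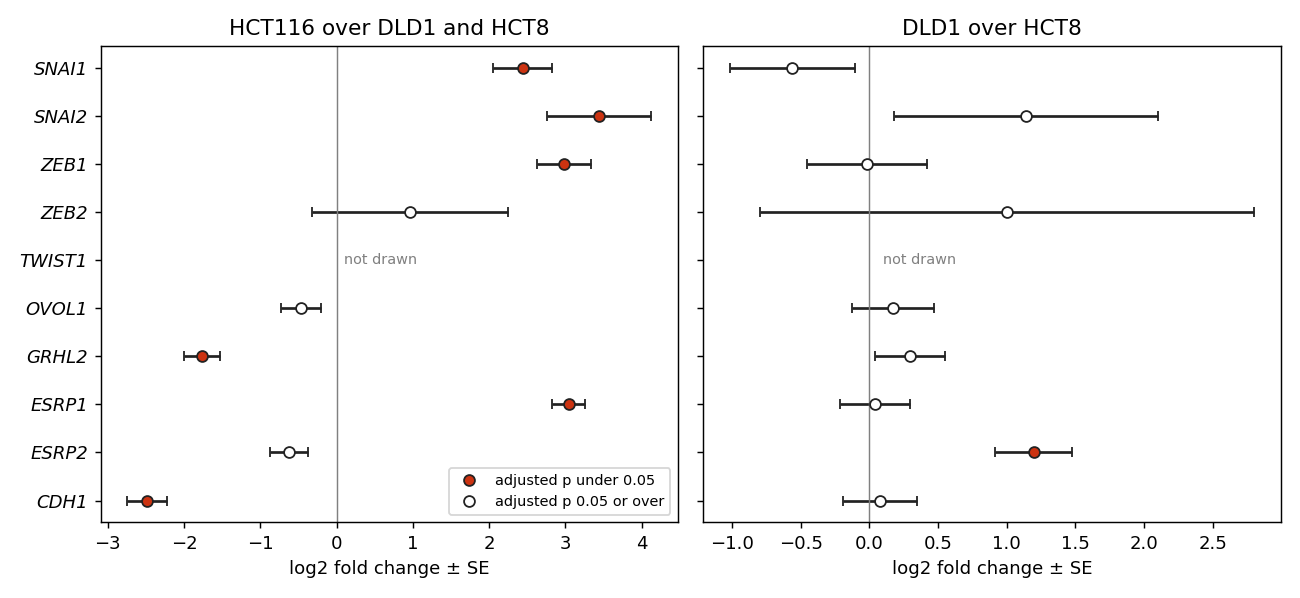
Log2 fold change ± SE of HCT116 over DLD1 and HCT8 (left) and of DLD1 over HCT8 (right), from edgeR on 6 libraries, with filled points for an adjusted p under 0.05; TWIST1 is not drawn because DLD1 and HCT8 held at most 3 counts. In HCT116, SNAI1, SNAI2, ZEB1 and ESRP1 were higher and GRHL2 and CDH1 lower, while DLD1 and HCT8 differed in ESRP2.

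The lists around these genes in HCT116 moved partly with them. Of 20 epithelial junction and polarity genes 0 rose and 5 fell, beside 17.2% and 13.5% of all genes. EPCAM, CRB3, ST14 and PRSS8 were among the 5. The list's median log2 fold change was -0.43 beside -0.02 over all genes, and under column totals 9 fell, where 4119 of 23329 genes did. ST14, the membrane protease matriptase, fell by 1.22 (SE 0.21, adjusted p = 0.00166), and the list's highest was CLDN4, a tight junction claudin, at 0.67 (adjusted p = 0.0634). Of 11 other epithelial-side factors tested, 5 fell and 1 rose. FOXA1, a pioneer factor of epithelia, fell by 6.79 (SE 0.31, adjusted p = 3.45e-07), and KLF4 rose by 2.44 (SE 0.48, adjusted p = 0.00393).

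Of 20 mesenchymal effector genes 8 rose and 2 fell, beside 17.2% and 13.5% of all genes, with a median of 1.71, and under column totals 6 rose and 2 fell. AXL, a receptor kinase of mesenchymal-like tumor cells, rose by 5.75 (SE 0.27, adjusted p = 3.61e-07), and TNC, a matrix glycoprotein, fell by 2.45 (SE 0.59, adjusted p = 0.0113). VIM, FN1, FBN1 and POSTN are among the 8, and they were higher in the 3 libraries with the second run label than in the other 4 without HIEC6, at 424 to 1142 against 10 to 324 counts for VIM, 2573 to 5131 against 14 to 742 for FN1 and 321 to 468 against 62 to 178 for FBN1. Of 9 other mesenchymal-side factors tested 3 rose and 2 fell, with FOXQ1, a forkhead factor, at -6.69 (SE 0.38, adjusted p = 1.12e-06). Of 8 genes spliced under ESRP control 4 rose in gene level, with CD44, the hyaluronan receptor, at 5.45 (SE 0.22, adjusted p = 2.06e-07), and counts per gene do not show isoforms.

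The library labelled NCM460 resembled HCT116 in these genes too, but not in every one. Its CPM ratio to untreated HCT116 was 1.07 for ESRP2, 1.11 for ESRP1, 1.16 for CDH1, 1.38 for GRHL2 and 1.502 for SNAI1. It was 3.07 for OVOL1, 0.379 for SNAI2, 0.363 for ZEB1 and 0.277 for TWIST1. ZEB1, SNAI2 and TWIST1 were therefore lower, and OVOL1 higher, in the library labelled NCM460 than in HCT116, with no replicate to test the difference.

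DLD1 and HCT8 were then compared with each other. Of the 10 genes, 1 passed in edgeR, higher in DLD1, beside 14.9% of 23329 genes (6.7% higher and 8.25% lower). ESRP2 was higher in DLD1, at 150.3 and 192 CPM, than in HCT8, at 85.4 and 77.0 CPM, by a log2 fold change of 1.20 (SE 0.28, adjusted p = 0.0187). SNAI1 was lower in DLD1, at 4.08 and 2.67 CPM, than in HCT8, at 5.89 and 5.29 CPM. GRHL2 was higher in DLD1, at 120.3 and 118 CPM, than in HCT8, at 116 and 102 CPM. Neither passed. CDH1, ZEB1, OVOL1 and ESRP1 overlapped between the lines. The call of ESRP2 was lost without the untreated DLD1 library (adjusted p = 0.0914), without the hypoxia library of DLD1 (0.0813) or of HCT8 (0.341), and without the treatment term (0.0933).

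Hypoxia against no treatment called none of the 10 genes. In edgeR without the line as a block, 0 of 23329 genes passed (0%), of which 620 had an unadjusted p under 0.05, and DESeq2 called 51. With the line as a block, 351 genes passed (1.5%), 249 of them higher (1.07%) and 102 lower (0.437%), and again 0 of the 10. The treatment itself was visible, since 13 of 16 hypoxia response genes rose in the blocked fit. CA9, the carbonic anhydrase induced by HIF, rose by 7.00 (SE 0.53, adjusted p = 7.82e-04).

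CDH1 was higher under hypoxia in each line, with a log2 CPM ratio of 0.10 in DLD1, 0.80 in HCT116 and 0.58 in HCT8, all beyond the 95% counting interval, as were 7.06% of genes. The blocked fit gave 0.62 (SE 0.22, adjusted p = 0.185). It was the only one of the 10 beyond counting error in the same direction in all 3 lines. GRHL2 was lower in HCT116 by a log2 ratio of -1.20 and in HCT8 by -0.18, and in DLD1 its ratio of -0.03 was within counting error (blocked fit -0.34, SE 0.21, adjusted p = 0.438).

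SNAI1 went from 655 to 1443 counts in HCT116 under hypoxia, a log2 ratio of 1.05 (interval 0.92 to 1.19). In DLD1 it went from 209 to 153 counts (-0.61, interval -0.92 to -0.31) and in HCT8 from 310 to 241 (-0.15, interval -0.40 to 0.09). ZEB1 moved by 0.33 in HCT116 and within counting error in DLD1 and HCT8. SNAI1, OVOL1, ESRP1 and ESRP2 moved in opposite directions in 2 or more lines beyond counting error, beside 22.2% of all genes. In HCT116, 8 of the 10 genes were higher and 2 lower beyond counting error, beside 21.7% and 46.1% of all genes. In DLD1 the counts were 5 and 2, beside 27% and 27.6%, and in HCT8 2 and 3, beside 32.1% and 30.5%. Each ratio rests on 1 library a side, and for HCT116 the TMM factors of the pair differed (1.004 and 0.795), with TWIST1 within counting error after that scaling.

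**Figure D4:**
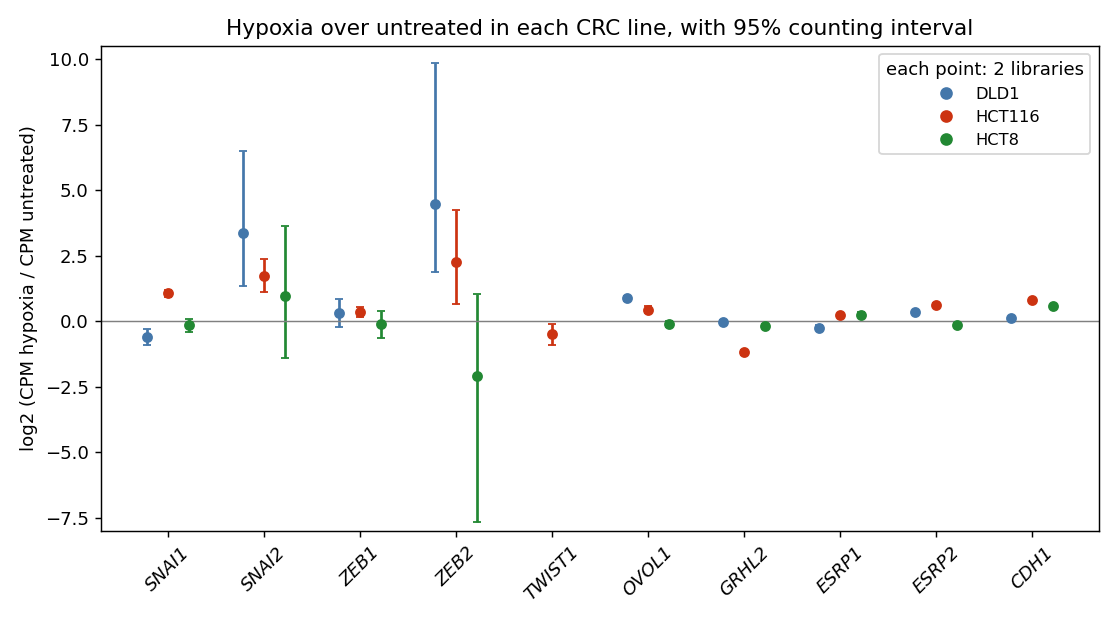
Log2 ratio of the hypoxia to the untreated CPM of each gene in DLD1, HCT116 and HCT8, with exact 95% counting intervals; TWIST1 is drawn for HCT116 alone, the line with counts in both libraries. CDH1 is above 0 in all 3 lines, SNAI1 is above 0 in HCT116 alone, and the SNAI2 and ZEB2 ratios of DLD1 and HCT116 are the highest.

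SNAI2 and ZEB2 had the largest ratios, on few counts. SNAI2 went from 2 to 23 counts in DLD1, from 28 to 98 in HCT116 and from 3 to 5 in HCT8, with a blocked log2 fold change of 2.13 (SE 0.73, adjusted p = 0.169). ZEB2 went from 1 to 25 counts in DLD1, from 4 to 20 in HCT116 and from 5 to 1 in HCT8, with 1.88 (SE 1.44, adjusted p = 0.544). Both ratios were beyond counting error in DLD1 and HCT116, the lines whose hypoxia libraries carry the second run label. In HCT8 they were within it, at 0.95 for SNAI2 (interval -1.41 to 3.63) and -2.11 for ZEB2 (interval -7.68 to 1.05).

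ZEB2 was the only one of the 10 genes that was higher in all 3 libraries with that label (7 to 25 counts, NCM460 included) than in the other 4 libraries without HIEC6 (1 to 5 counts). Of 20 mesenchymal effector genes 10 had this pattern, beside 1.16% of 23595 genes, a count made after the values were seen. POSTN, which encodes the matrix protein periostin, held 167 to 320 counts in the 3 libraries and 0 to 6 in the other 4, and MMP2, a gelatinase, 68 to 121 against 2 to 8. COL1A2, a collagen of fibroblasts, held 393 to 724 against 21 to 66, and CDH11, a mesenchymal cadherin, 25 to 46 against 0 to 7. The mesenchymal effector list summed to 142 to 284 CPM in the 3 libraries and 35.7 to 185 in the other 4, and no gene of it was at 0 in the 3. In the blocked fit 4 of these 20 genes rose with hypoxia (FN1, COL1A1, MMP2 and POSTN), with POSTN highest at 6.03 (SE 0.99, adjusted p = 0.0207). Hypoxia and the second run label cannot be told apart in DLD1 and HCT116.

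**Figure D5:**
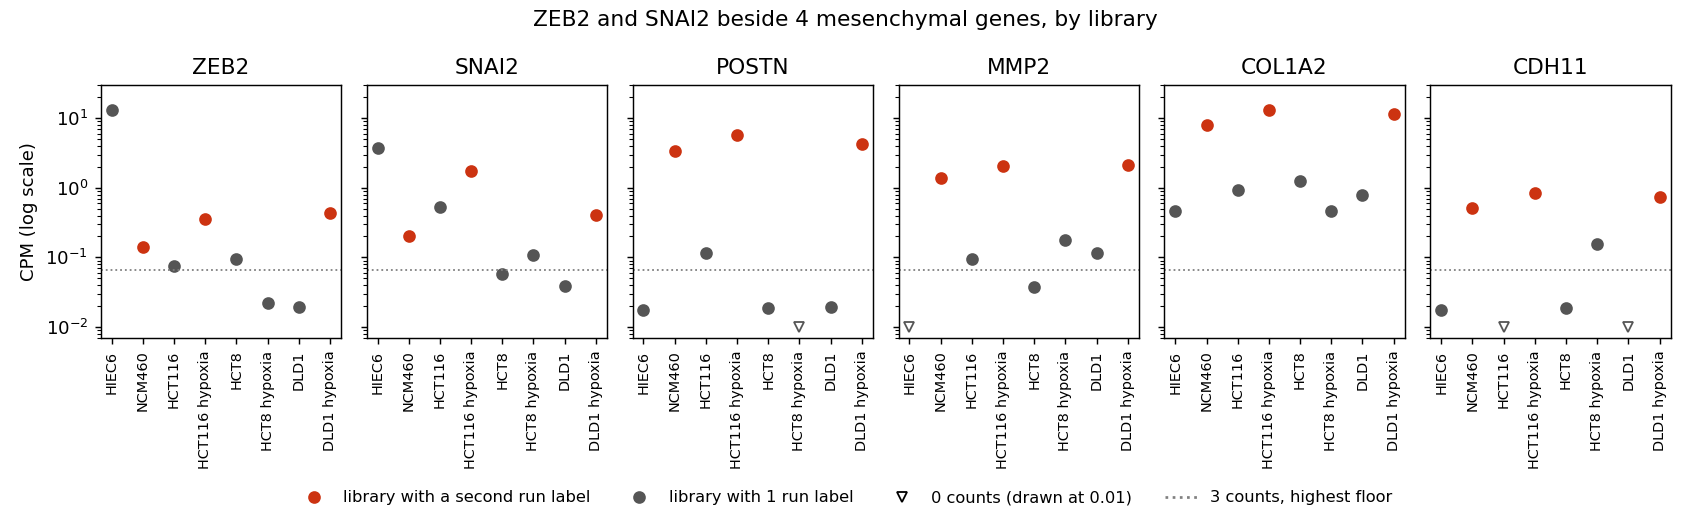
CPM on a log scale of ZEB2 and SNAI2 and of POSTN, MMP2, COL1A2 and CDH11 in the 8 libraries, with the libraries that carry a second run label in red and 0 counts as open triangles. POSTN, MMP2, COL1A2 and CDH11 are high in the same 3 libraries, and ZEB2 is above the other libraries there apart from HIEC6.

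Genes whose levels ran most like CDH1 and ZEB1 over the 8 libraries were ranked among 14354 genes by the Pearson r of log2(CPM + 1), as a description, since libraries of a line are not independent. For CDH1 they were CASK (r = 0.992), a scaffold kinase of cell junctions and synapses, SIGIRR (0.987), an inhibitory interleukin receptor family member, and ERICH2 (0.986). CASK ran from 20.2 CPM in HIEC6 over 59.3 in HCT116 and 62.7 in NCM460 to 129 in DLD1 and 139.8 in HCT8, and to 167 in HCT8 under hypoxia. For ZEB1 they were PRKAA2 (0.992), a catalytic subunit of AMP-activated kinase, OLFM1 (0.980), a secreted olfactomedin glycoprotein, and WNT6 (0.974), a secreted Wnt ligand. PRKAA2 stood at 42.4 CPM in HIEC6, 11.5 in HCT116, 23.6 in HCT116 under hypoxia and 0.813 in NCM460, and at 0.0523 CPM or less in the 4 libraries of DLD1 and HCT8.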

How the data were processed

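Total RNA of 5 untreated lines and of 3 CRC lines under hypoxia was depleted of ribosomal RNA and sequenced on a HiSeq instrument. The authors deposited a single table of raw gene counts, whose 8 columns were mapped to samples by title. The methods name GRCh37.p13 and the submitters' processing notes GRCh38 with HISAT2 2.0.4. The counter, annotation, strand and treatment of multi-mapping reads are not given in the sources used here. The table holds no coordinates, so gene positions come from a GENCODE annotation of GRCh37, and exon lengths, used per kilobase for the ESRP genes, are unions of exons.

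CPM used column totals (45519306 to 57374239). Tests used edgeR 4.0.16 (quasi-likelihood, TMM, Benjamini-Hochberg over all genes, threshold 0.05; R 4.3.3). A gene entered a fit when 1 or more of its libraries reached 10 counts. DESeq2 1.42.0, other scalings and filters, a replicate block and each library left out were alternatives. Counting intervals are exact binomial (95%, SciPy 1.17.1). Scripts were tested on simulated data, with the spread of each fit given to all genes and 200 genes set at a log2 change of 4. The edgeR test then recovered 0% of them in CRC against normal lines and in HIEC6 against CRC lines. In the hypoxia comparison it recovered 1% without the block and 100% with it, and in HCT116 against DLD1 and HCT8 100%. A lack of edgeR calls in the first 2 comparisons and in unblocked hypoxia thus does not show that a gene was unchanged. For hypoxia with the block, recovery was 96.5% at a log2 change of 2, with a spread of 0.303 for all genes. Recovery of smaller changes, of changes that differ between lines, or of genes with few counts on their own was not tested. For such genes a lack of calls with the block does not show that they were unchanged either. In the hypoxia comparison a replicate number names a cell line and therefore pairs libraries. The r of their deviations from group means was 0.799 for DLD1, 0.825 for HCT116 and 0.777 for HCT8, and -0.584 to -0.0612 between lines.

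The genes and lists were chosen with earlier results of these data known. Named genes are the 10 genes, the highest and lowest of each list by fold change, genes used as checks of the samples, and the 3 most alike to CDH1 and to ZEB1. Values of some list genes are not reported here.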

Additional observations from a re-analysis of the deposited data

Results flagged for a closer look

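For 4 of the 10 genes, hypoxia moved the level in opposite directions in different CRC lines, beyond the 95% counting interval under both column totals and TMM scaling. Over all genes, 22.2% showed opposite directions under column totals. The difference between lines was not tested, since each line had 1 library per treatment, and groups of 2 or 3 are too small for a check on outlying samples. SNAI1 had a log2 ratio of hypoxia to untreated of 1.05 in HCT116 and -0.61 in DLD1. OVOL1 had 0.87 in DLD1 and 0.43 in HCT116, and -0.11 in HCT8. ESRP1 had 0.24 in HCT116 and 0.24 in HCT8, and -0.26 in DLD1. ESRP2 had 0.35 in DLD1 and 0.61 in HCT116, and -0.15 in HCT8. Run and treatment cannot be told apart in any of these ratios.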

How the results depend on the processing

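Over the 278 fold changes recomputed, 257 kept their direction and their side of the threshold. These 278 do not cover all 10 genes in every comparison, and other genes changed sign between alternatives. In CRC against normal lines the log2 fold change ran from -1.18 to 9.87 for OVOL1 and from -1.92 to 9.85 for ESRP1. In the hypoxia comparison it ran from -1.55 to 2.01 for ESRP1 and from -0.62 to 0.24 for GRHL2, and SNAI1 and ZEB1 also changed sign. In CRC against normal lines DESeq2 called 267 genes and 1 of the 10 (ZEB2), against 0, and leaving out 1 library gave 0 to 5 genes. In HIEC6 against the CRC lines, against 5 genes, filters of 10 counts in 2 or in every library gave 0, no filter 42 and DESeq2 2588 (6 of the 10 genes), and leaving out 1 CRC line gave 0 to 117 genes and 0 to 2 of the 10, the upper values without HCT116. In the hypoxia comparison, against 0, DESeq2 called 51 genes, the replicate block 351, and the block with DESeq2 1659. With the block, and as alternatives chosen after seeing the data, leaving out a pair gave 172 (HCT8), 1073 (HCT116) and 521 (DLD1), and none of the 10 was called in any. The log2 fold change of CDH1 ran from -0.084 (without untreated HCT116, a reversal) to 0.87 when 1 library was left out. In HCT116 against the other lines, against 7176 genes, a filter of 10 counts in every library called 4601. The fit without the hypoxia libraries of DLD1 and HCT116, also chosen after seeing the data, called 2562 and 4 of the 10 genes. Column totals turned 4021 higher and 3155 lower into 2971 and 4119, and SNAI2 was lost without HCT116 under hypoxia (adjusted p = 0.0795). In DLD1 against HCT8, against 3486, the fit without treatment called 1500 genes and 0 of the 10, and leaving out 1 library 1453 to 6616 genes and 0 to 1 of the 10. The cause of these changes was not tested. In CRC against normal lines a replicate number stands for unrelated lines, and the replicate block called 0 genes. Levels scaled by TMM differ from those by column totals through factors of 0.795 (HCT116 under hypoxia) to 1.16 (HCT8 under hypoxia). With a pseudocount of 0.1, ERICH2 led the genes most like CDH1 (r = 0.993), and PRKAA2 still led for ZEB1 (0.991). Depth limits SNAI2, ZEB2 and TWIST1 outside HIEC6 and the hairpin genes, most of which held under 100 counts. It also limits OVOL1, ESRP1, GRHL2 and ESRP2 in HIEC6, at 1, 5, 11 and 33 counts.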
